A study of Homo sapiens with 7 samples.

Results

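The baseline state of HT1080 cells was described from the 5 arrays, of 7 in the series, whose cultures received no test serum. HT1080 is an established human fibrosarcoma line, a tumour line of connective tissue origin. Of these cultures 4 were kept for 2 h with a single polyphenol: 11.25 ng/ml of catechin, 6.25 ng/ml of epicatechin, 6.25 ng/ml of taxifolin or 2195 ng/ml of resveratrol. The last received no compound, and the labels give no time for it. The remaining 2 cultures held 5% control serum or 5% pycnogenol-positive serum for 2 h and were used for 1 comparison. According to the labels all cells were maintained in medium with 10% foetal bovine serum, and the medium was replaced before a compound was added. Whether the new medium held foetal bovine serum is not given in the sources used here, so the 5 cultures are called arrays without test serum and not serum-free cultures. Each array was a single culture with its own compound, and the spread between arrays therefore includes any effect of the compounds. The labels do not say whether the cultures were grown separately, so that spread may be partly technical. For each of 19775 genes the mean log2 signal over the 5 arrays was computed, and the genes were ranked by it.

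Fibrosarcoma cells resemble fibroblasts: they carry vimentin filaments in place of most keratins, move as single cells, lay down and cut extracellular matrix, and sense it through integrins. Many tumour lines also release growth factors whose receptors they carry, which is called autocrine signalling. HT1080 is widely used to study invasion and pericellular proteolysis, and is known as a line with an activated NRAS gene, a mutated IDH1 gene and loss of the CDKN2A locus.

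The files held 54675 signals per array, computed by MAS5, a method that sets a probe set's perfectly matched probes against mismatched ones and gives a linear intensity. No detection calls came with them, so a working limit was taken from 138 genes of families restricted to sensory or hair cells, namely odorant, taste and vomeronasal receptors and hair keratin-associated proteins. The median signal of these genes was 50.1, and the 95th percentile of their mean log2 signals was 7.51, a signal of 183, which was used as the limit. Genes over it are called above the limit and the others not above the limit, which does not show that no RNA was present. In all, 10793 of 19775 genes, or 54.6%, lay above the limit and 8982 did not. The median gene had a signal of 276, and the top 25% of genes began at 2175. With several probe sets a gene was read from the brightest, and the share above the limit rose from 37.4% for genes with 1 probe set to 84.2% for genes with 6 or more. Probe sets differ in affinity, so the ranks are ranks of signals and not of RNA amounts.

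**Figure D1:**
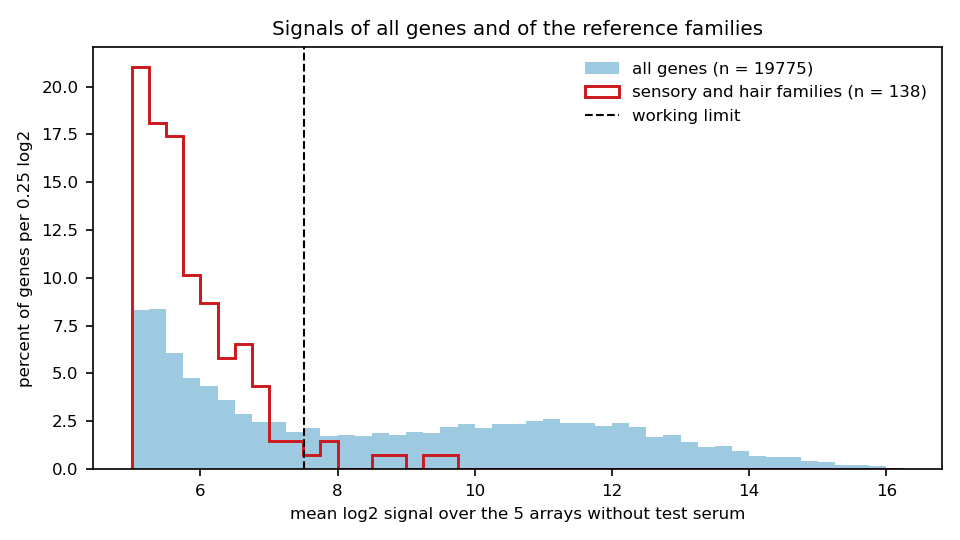
Histogram of the mean log2 signal over the 5 arrays without test serum (x axis) as percent of genes per 0.25 log2 (y axis), for all 19775 genes (filled) and the 138 sensory and hair genes (outline). The dashed line is the working limit at 7.51; 7 of the 138 reference genes lay to its right.

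The 5 arrays ranked genes alike. Spearman's rho between arrays, a description over 19775 genes that share the same probes, lay between 0.957 and 0.962 for the 10 pairs, and 88 of the 100 highest genes of an array were shared by all 5. On all 5 arrays 10145 genes, or 51.3%, lay above the limit, 7911 genes, or 40.01%, lay above it on none, and 1719 genes, or 8.69%, on some. Protein-coding genes were above the limit in 10193 of 16517 cases and long non-coding RNAs in 440 of 2658. Array medians over all probe sets ran from 121 to 136, the highest being that of the resveratrol array.

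The protein synthesis machinery filled the top of the ranking. Among the 20 highest signals were 16 cytosolic ribosomal protein genes, led by RPS19 with signals of 65529, 64871, 69337, 66767 and 66384 in the order catechin, epicatechin, taxifolin, resveratrol and untreated, which is kept below. RPL7, RPL37A, RPS6, RPS23, RPS16, RPL31, RPS12, RPL27, RPL24, RPS21, RPS10, RPLP1, RPL37, RPS29 and RPL39 were the others. The remaining 4 of the 20 were TUBA1B, an alpha-tubulin, EEF1A1, the elongation factor that brings aminoacyl-tRNA to the ribosome, TPT1, a translationally controlled growth-related protein, and TFRC, the transferrin receptor that takes up iron. TFRC read 58678, 58258, 60758, 60109 and 57018 and was the only cell surface receptor among them. Of the list of ribosomal protein genes 52 of 53 measured members were above the limit, with a median signal of 51491, against 54.6% and 276 for all genes. Translation factors had 33 of 34 above the limit and a median signal of 23726. These families have many processed pseudogenes and close copies, so their probe sets may share transcripts.

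Other housekeeping programs were almost complete. In the proteasome list, which degrades tagged proteins, 30 of 31 members were above the limit with a median signal of 15939. Of the actin and microtubule genes 39 of 40 were, with a median of 16895, led by TUBA1B, TMSB10, a thymosin that binds actin monomers, and ACTB. The beta-tubulin TUBB2B was the member not above the limit, at 24 to 78. Glycolysis had 21 of 25 members above the limit and a median of 4802. GAPDH read 56293, 55814, 60274, 55434 and 57565, for a mean log2 signal of 15.80 ± 0.05 (SD, n = 5, as for all later means). Lactate dehydrogenases LDHA and LDHB averaged 15.72 ± 0.10 and 15.50 ± 0.06, and the enolase ENO1 15.43 ± 0.12. The glycolytic genes not above the limit were isoforms of other tissues: ENO3 and PGAM2 of muscle, PKLR of liver and red cells, and the hexokinase HK3.

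**Figure D2:**
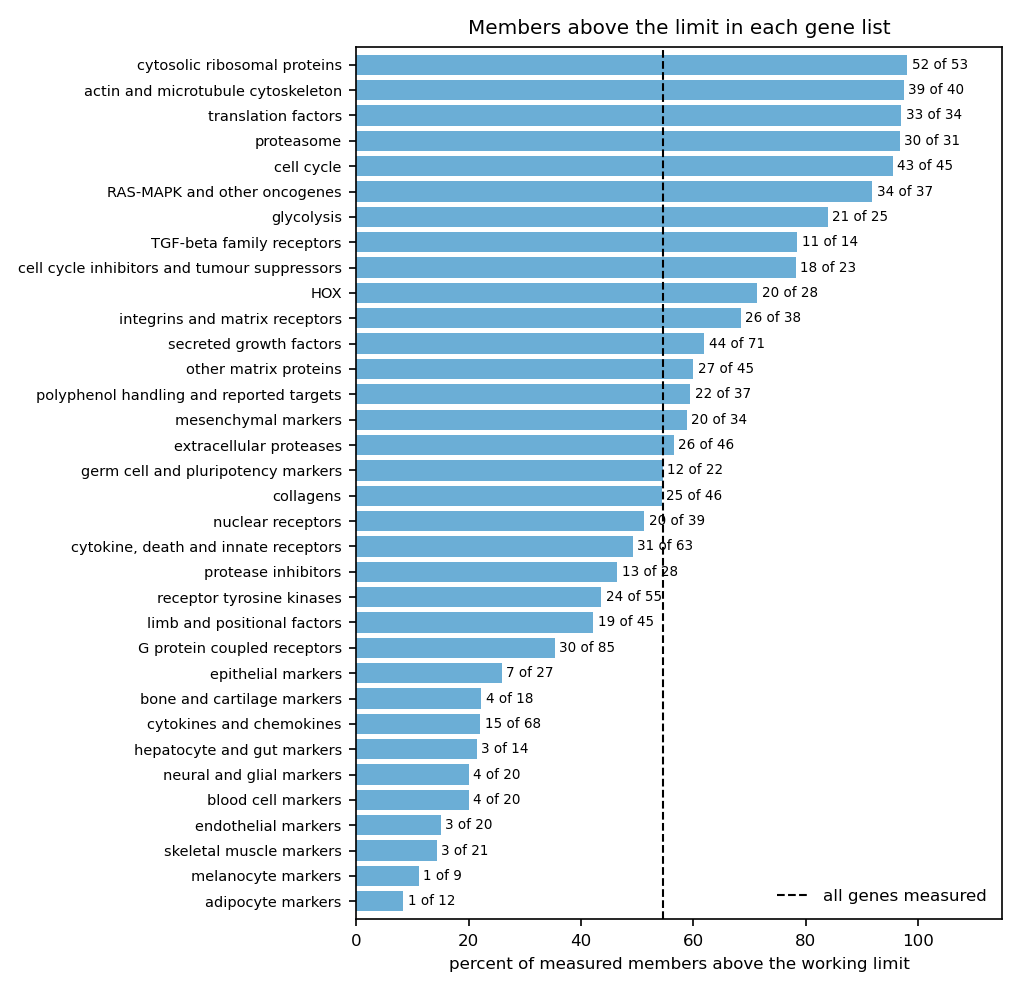
Percent of measured members above the working limit (x axis, from 0) in each of 34 gene lists, with the counts beside the bars; the dashed line is the 54.6% of all genes. Ribosomal, cytoskeletal, translation, proteasome and cell cycle lists lie above 95%, and the adipocyte, melanocyte, skeletal muscle and endothelial lists are the lowest.

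The mesenchymal markers were split between very bright and dim genes. Of 34 members 20, or 58.8%, were above the limit, against 54.6% of all genes, with a median signal of 685 against 276. VIM, the vimentin filament protein, read 47756, 46701, 50229, 46958 and 48305, a mean of 15.55 ± 0.04 at the 99.7th percentile of genes. S100A6, a calcium-binding protein, and LGALS1, galectin-1, averaged 15.68 ± 0.05 and 15.26 ± 0.03. The actin-associated genes CALD1, TPM1 and TPM2 averaged 14.44 ± 0.08, 14.38 ± 0.08 and 13.67 ± 0.18. All 5 arrays of each of these genes were in the top 25% of signals.

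Transcription factors of the mesenchymal list were above the limit for some members and not for others. CDH2, the adhesion protein N-cadherin, read 8046, 9659, 7920, 8110 and 9161. The repressor ZEB1 averaged 12.93 ± 0.13, SNAI2 12.24 ± 0.08, TWIST1 11.20 ± 0.15, TWIST2 10.89 ± 0.27 and ZEB2 10.68 ± 0.13. SNAI1, the first described member of the Snail family, was not above the limit on any array, at 9 to 57. Repressors of these families thus differed: ZEB, SNAI2 and TWIST genes were above the limit on every array and SNAI1 on none. The developmental factors PRRX1, TCF21, TBX5, FOXF1 and MEOX2 were not above it on any array either.

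Surface markers of the mesenchymal list were split. ALCAM and MME were above the limit on all 5 arrays, at 13174 to 15342 and 9415 to 11724. So were CDH11 at 1971 to 2223 and ENG at 1065 to 1372, ENG with 1 of 2 probe sets above the limit. Several genes by which fibroblasts are usually recognised were not above the limit. PDGFRA, the alpha receptor for platelet-derived growth factor, read 13, 30, 33, 29 and 40, and all 4 of its probe sets were below the limit. PDGFRB lay at 24 to 97, PRRX1, a limb and fibroblast homeobox factor, at 37 to 133, FAP, fibroblast activation protein, at 77 to 190, THY1 at 100 to 145 and NT5E at 44 to 81. Contractile smooth muscle genes were split, with ACTA2, smooth muscle actin, at 1923 to 2810, TAGLN at 186 to 332 and CNN1 at 14 to 56. S100A4, called fibroblast-specific protein, averaged 7.86 ± 0.35, close to the limit, with 178 on the untreated array below it.

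Epithelial markers were above the limit in 7 of 27 cases, with a median signal of 74.9. The simple-epithelium keratins KRT18 and KRT8, which pair in a filament, were high: KRT18 read 18155, 17461, 18174, 19292 and 17292 and KRT8 3813, 3597, 3649, 3862 and 3545. Each was read from a single probe set of the kind that can bind related sequences. KRT7 averaged 10.65 ± 0.13, and the desmosome protein DSP 10.51 ± 0.17. CDH1, E-cadherin, read 72, 14, 6, 42 and 89, and EPCAM 10, 22, 48, 54 and 23. KRT19 lay at 3 to 8, CLDN4 at 11 to 43 and the splicing regulator ESRP1 at 5 to 76. Thus 2 keratins were in the top 25% while the adhesion genes CDH1 and EPCAM were not above the limit on any array. In RNA of a whole culture a few cells with much of a transcript and many cells with little cannot be told apart. With probe sets of the suffixes _x_at and _s_at left out, or with the limit at the 99th percentile of the reference genes, the list's count was 4.

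**Figure D3:**
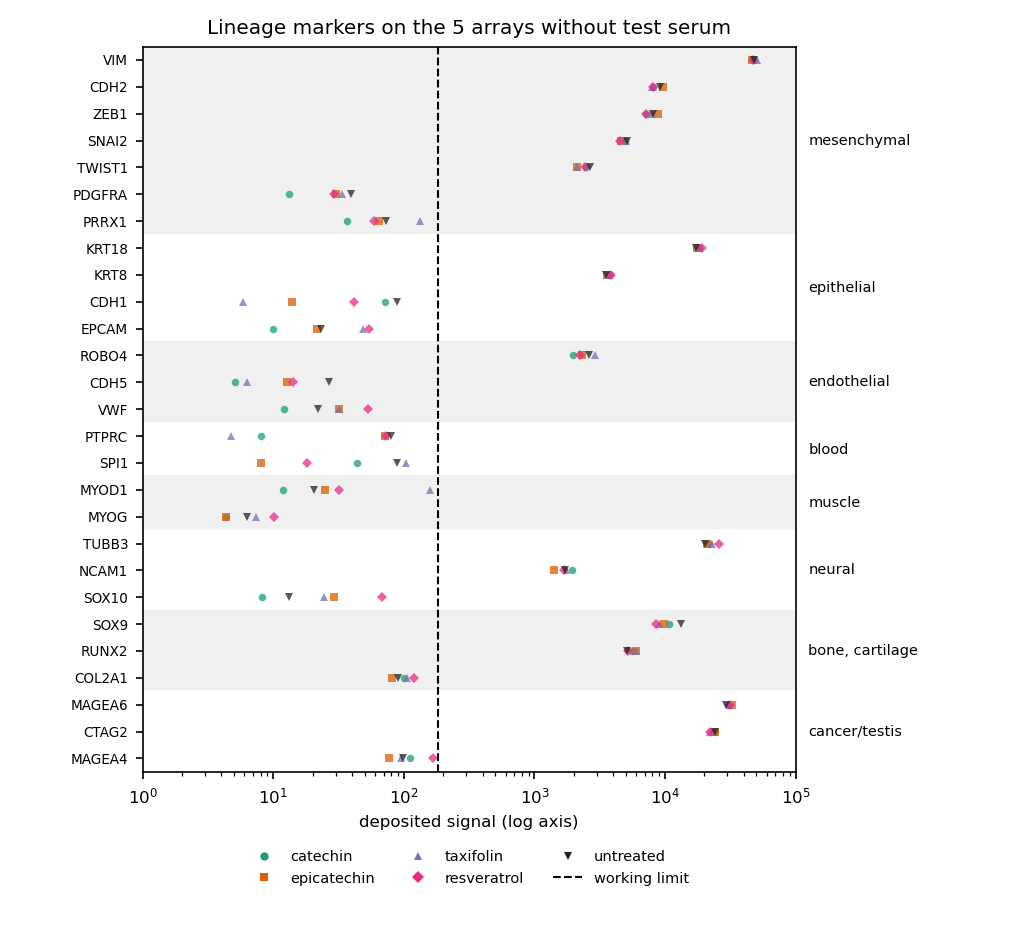
Deposited signal on a log axis (x axis) of marker genes of 8 classes (y axis) on the 5 arrays without test serum, 1 symbol per array, with the working limit as a dashed line. VIM, CDH2, KRT18, TUBB3, SOX9 and MAGEA6 sit to the right of the line on all 5 arrays and CDH1, EPCAM, PDGFRA, CDH5, PTPRC and MYOG to the left on all 5.

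Markers of other lineages were few and mostly dim. Blood cell markers were above the limit in 4 of 20 cases. The brightest was CD79A at 8.50 ± 0.50, then HBB at 8.35 ± 0.35, CD3D at 7.86 ± 0.23 and CSF1R at 7.54 ± 0.26. CSF1R lay above the limit on 2 arrays only. PTPRC, the leukocyte antigen CD45, lay at 5 to 80 and SPI1 at 8 to 103, not above the limit. Skeletal muscle markers were above the limit in 3 of 21. The myogenic factors were not, with MYOD1 at 12 to 159, MYF5 at 2 to 45 and MYOG at 4 to 10. The troponin TNNT1 was the brightest muscle marker, at 9.65 ± 0.26, followed by TTN at 8.89 ± 0.21 and ACTC1 at 7.68 ± 0.46. Adipocyte markers were above the limit in 1 of 12, FABP4 at 128 to 265. CIDEC at 116 to 256 and LPL at 36 to 172 came next and were not above it on the mean. Hepatocyte and gut markers were above it in 3 of 14. Those 3, AFP, FOXA2 and CYP3A4, lay close to the limit, and CYP3A4 read 33 on the catechin array and 260 to 454 on the others. No blood, adipocyte or hepatocyte and gut marker was above the limit taken at the 99th percentile of the reference genes.

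Endothelial markers were above the limit in 3 of 20 cases. ROBO4, a guidance receptor of vessel walls, read 1978, 2310, 2893, 2226 and 2608, and both of its probe sets were above the limit. TIE1, an endothelial receptor kinase, averaged 9.77 ± 0.12, but its other probe set was not above the limit. FLT1 lay close to the limit, at 200 to 295, with 1 of 6 probe sets above it. The defining genes CDH5, VWF and KDR were at 5 to 27, 12 to 53 and 36 to 63. Without probe sets of the suffixes _x_at and _s_at the count was 1.

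Neural, bone and cartilage lists held isolated high genes. TUBB3, the neuronal class of beta-tubulin, read 21704, 20964, 22837, 25989 and 20222. Both of its probe sets carry the suffix _x_at and can bind related sequences, so the signal may include other tubulins. SOX10, a neural crest factor, lay at 8 to 68, SYP at 13 to 69 and GFAP at 8 to 61. NCAM1, a neural cell adhesion molecule, averaged 10.72 ± 0.16 and ENO2 9.89 ± 0.26; in all 4 of 20 neural and glial markers were above the limit. Among 18 bone and cartilage markers 4 were above it. SOX9, the chondrocyte master factor, read 10789, 9805, 8999, 8458 and 13318, and RUNX2, its counterpart in bone, 5627, 6032, 5985, 5222 and 5145, from 1 of 6 probe sets above the limit. SPP1, osteopontin, averaged 11.28 ± 0.18. The cartilage products COL2A1 and ACAN were not above the limit on the mean, at 81 to 119 and 54 to 294, and SP7, an osteoblast factor, lay at 5 to 32. Of the melanocyte list only MITF was above the limit, at 10.46 ± 0.09. SLC45A2 at 69 to 240 and OCA2 at 53 to 157 came next, and PMEL lay at 9 to 25 and MLANA at 8 to 82.

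Cancer/testis antigens, genes of the X chromosome and elsewhere that are normally limited to germ cells, included very bright genes. Of the germ cell and pluripotency list 12 of 22 members, or 54.5%, were above the limit, with a median signal of 298, against 54.6% and 276 for all genes. MAGEA6 read 30398, 32678, 31480, 31387 and 29169, a mean of 14.92 ± 0.06. CTAG2, related to NY-ESO-1, averaged 14.51 ± 0.07, MAGEA12 14.04 ± 0.05, MAGEB2 13.94 ± 0.05 and SSX1 13.12 ± 0.11. MAGEA1, PRAME, PAGE1, MAGEC2, GAGE1 and MAGEC1 were also above the limit, from 11.48 ± 0.12 for MAGEA1 down to 7.94 ± 0.59 for MAGEC1, whose epicatechin and resveratrol arrays were below it. The antigens form families of near-identical copies, so a probe set may read more than its named gene. MAGEA4 and MAGEA10 were nevertheless at 77 to 166 and 8 to 13. Germ line genes proper were not above the limit: DAZL lay at 2 to 41, DDX4 at 5 to 51 and NANOG at 34 to 75. LIN28B, a blocker of let-7 maturation, averaged 9.14 ± 0.24, and its paralogue LIN28A lay at 5 to 54.

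Cell cycle genes were above the limit in 43 of 45 cases, with a median signal of 5604. TYMS, thymidylate synthase, read 31292, 29457, 29532, 30455 and 28300, and PCNA, the DNA polymerase clamp, averaged 14.65 ± 0.13. Both ribonucleotide reductase subunits, RRM1 and RRM2, averaged 14.48 ± 0.05 and 14.19 ± 0.08. Of the cyclins CCND1, which drives G1 with CDK4 or CDK6, averaged 14.10 ± 0.09 and CCNB1, the mitotic cyclin, 14.09 ± 0.13. CDK1, CDK4 and CDK6 averaged 13.83 ± 0.04, 13.73 ± 0.14 and 13.59 ± 0.13. The members not above the limit were CCNA1 and CCNB3, cyclins of meiotic cells.

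Among inhibitors of the cell cycle and tumour suppressors 18 of 23 members were above the limit, with a median signal of 1340. RB1, the retinoblastoma protein that CDK4 inactivates, read 11164, 10974, 10977, 10898 and 10386. The CDK inhibitors CDKN1A and CDKN1B averaged 12.04 ± 0.19 and 11.89 ± 0.12. CDKN2A, which encodes p16 and ARF, read 46, 84, 180, 157 and 50, and its neighbour CDKN2B 13, 22, 7, 13 and 60; no probe set of either gene was above the limit. MTAP, a methionine salvage enzyme beside them, read 156, 204, 223, 218 and 193, with 1 of 6 probe sets above the limit. NF1 lay at 62 to 127 and FHIT at 74 to 134.

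The genes around CDKN2A on the short arm of chromosome 9 were read after these values had been seen. KLHL9 (chr9:21329665-21335404 in the RefSeq annotation of GRCh38.p14, as are the positions that follow) read 8890 to 10896. The measured protein-coding genes from IFNA2 to ELAVL2, which included IFNA8, IFNA1, IFNE, CDKN2A (chr9:21967752-21995324), CDKN2B and DMRTA1, were not above the limit on the mean, with MTAP (chr9:21802636-21941115) as the exception. The next measured genes, TUSC1 (chr9:25676969-25678444), CAAP1 and PLAA, read 1968 to 2477, 4918 to 5932 and 6266 to 6719. Interferon genes and the neuronal ELAVL2 are not usually active in fibroblasts, and DNA was not measured.

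RAS pathway and other oncogenes were above the limit in 34 of 37 cases with a median signal of 3069. PHLDA1, a pleckstrin homology protein, read 31987, 33650, 34774, 32283 and 31330. MCL1, an apoptosis blocker, averaged 14.56 ± 0.06, and the Hippo effectors WWTR1 and YAP1 14.31 ± 0.06 and 13.65 ± 0.05. Transcripts that ERK signalling is known to raise were split. ETV5 averaged 12.93 ± 0.14, the phosphatases DUSP5 and DUSP4 12.94 ± 0.11 and 12.62 ± 0.17, SPRY2 12.70 ± 0.07 and FOSL1 12.33 ± 0.15. DUSP6, the phosphatase most used as an ERK readout, read 54 to 106 and none of its 3 probe sets was above the limit. MYC read 6607, 7174, 6955, 6147 and 7078, while MYCN and MYCL lay at 58 to 123 and 87 to 125. TERT, the catalytic subunit of telomerase, averaged 7.66 ± 0.30, close to the limit.

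Genes that record body position were uneven. In the HOX list 20 of 28 measured members were above the limit, with a median signal of 362. HOXB2 averaged 12.00 ± 0.17, HOXB7 11.77 ± 0.01 and HOXC6 11.62 ± 0.41. HOXB7 read 3518, 3495, 3496, 3511 and 3444, and HOXC6 4062, 3428, 2269, 2423 and 4092, so the arrays were close for HOXB7 and fell into low (taxifolin, resveratrol) and high values for HOXC6. HOXB2 to HOXB9 were all above the limit and HOXB1 and HOXB13, the ends of that cluster, were at 16 to 63 and 26 to 83. Of the HOXA cluster HOXA2 alone was measured, at 3 to 57.

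Among other limb and positional factors 19 of 45 were above the limit, with a median signal of 75.04. FOXD1, a forkhead factor of kidney stroma, stood out with 28743, 28069, 22593, 25229 and 26764, at the 98.4th percentile of genes. MEIS2, a HOX partner, averaged 11.85 ± 0.16, PBX3 11.25 ± 0.11, MSX1 11.14 ± 0.10 and TBX3 11.11 ± 0.13. PITX1, the hindlimb factor, was above the limit at 8.76 ± 0.18, while TBX4, its hindlimb partner, and TBX5, of the forelimb, lay at 19 to 52 and 14 to 107. EN1, LHX2 and LMX1B, which pattern limb axes, lay at 40 to 79, 9 to 90 and 7 to 76.

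Receptor tyrosine kinases were above the limit in 24 of 55 cases, fewer than the 54.6% of all genes, and 6 of them were in the top 25%. AXL, the receptor for GAS6, read 27860, 30156, 30201, 30715 and 31607. MET, the receptor for hepatocyte growth factor, read 16071, 17040, 14914, 17843 and 16050. RYK, a Wnt receptor, averaged 13.82 ± 0.08, the ephrin receptor EPHA2 13.02 ± 0.13, the collagen receptor DDR2 12.57 ± 0.17 and EGFR 11.88 ± 0.11. FGFR1 averaged 10.88 ± 0.10 and IGF1R 10.75 ± 0.36. INSR, the insulin receptor, lay at 30 to 140, KIT at 11 to 152, ALK at 19 to 104 and ROR2 at 3 to 11, none above the limit.

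Receptors of the TGF-beta family were above the limit in 11 of 14 cases with a median signal of 1216. TGFBR2, which binds the ligand first, read 12863, 14333, 13614, 13403 and 13952, and its partner TGFBR1 averaged 12.79 ± 0.08. ACVR1 averaged 12.28 ± 0.14 and BMPR2 10.68 ± 0.11. ACVRL1, an endothelial member, lay at 4 to 32 and AMHR2, the receptor of anti-Müllerian hormone, at 9 to 29.

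Cytokine, death and innate immune receptors were above the limit in 31 of 63 cases, with a median signal of 182. That was 49.2%, against 54.6% of all genes. TNFRSF10B, a death receptor for TRAIL, read 27841, 29857, 26884, 27351 and 27867. The other TRAIL receptors TNFRSF10A, TNFRSF10C and TNFRSF10D lay at 53 to 135, 74 to 144 and 50 to 138, none above the limit on any array. IL6ST, the shared signalling chain gp130, averaged 14.10 ± 0.20, with its partners OSMR at 12.97 ± 0.04, LIFR at 9.30 ± 0.20 and IL6R at 9.22 ± 0.15. FAS, TNFRSF1A and TNFRSF12A averaged 12.12 ± 0.13, 12.09 ± 0.16 and 13.75 ± 0.09. Of the Toll-like receptors TLR4, which senses bacterial lipopolysaccharide, averaged 10.68 ± 0.15 and TLR3, for double-stranded RNA, 8.61 ± 0.25, while TLR2 lay at 9 to 131.

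G protein coupled receptors gave dim signals as a class: 30 of 85 were above the limit, with a median signal of 92.8, and 3 were in the top 25%. These were the Wnt receptor FZD6 at 12.50 ± 0.13, the retinoic acid inducible GPRC5A at 11.55 ± 0.13 and the adhesion receptor ADGRL2 at 11.48 ± 0.05. F2R, the thrombin receptor, read 2326, 2052, 2098, 2715 and 1761, and LPAR3, for lysophosphatidic acid, 1989, 1393, 1217, 1019 and 1195. CXCR4 lay at 13 to 223 and its relative ACKR3 at 12 to 67.

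Integrins and other matrix receptors were above the limit in 26 of 38 cases with a median signal of 1121. ITGB1, the common beta chain, read 44420, 45315, 44847, 45147 and 42714, and the hyaluronan receptor CD44 37257, 41985, 40134, 38485 and 36992. The alpha chains ITGA2, for collagen, and ITGA6, for laminin, averaged 14.59 ± 0.09 and 14.44 ± 0.17. ITGAV averaged 13.58 ± 0.05 and ITGB5 13.15 ± 0.02, and ITGA5, the classical fibronectin chain, 10.48 ± 0.22. ITGB4, the epithelial partner of ITGA6, lay at 49 to 120, and the leukocyte chain ITGB2 at 141 to 152. Integrins of leukocytes and platelets, ITGAM, ITGAX, ITGAL and ITGA2B, were likewise not above the limit.

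Nuclear receptors were above the limit in 20 of 39 cases, or 51.3%, against 54.6% of all genes, with a median signal of 214. NR3C1, the glucocorticoid receptor, read 12357, 11713, 11711, 10031 and 11350. NR1D2, a clock repressor, averaged 13.14 ± 0.04, PPARD 12.31 ± 0.08 and the vitamin D receptor VDR 11.34 ± 0.04. The oestrogen receptors ESR1 and ESR2 lay at 106 to 143 and 14 to 104, and PPARG at 3 to 74. NR4A1, NR4A2 and NR4A3, which are induced within an hour of stimulation, were not above the limit on the mean.

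Secreted growth factors were above the limit in 44 of 71 cases, or 62.0%, against 54.6% of all genes, with a median signal of 357. CCN1, a matricellular target of YAP1, read 30322, 36747, 34334, 32578 and 34911. GDF15, a stress-induced hormone, read 27945, 36758, 33649, 31883 and 35468, and STC1, stanniocalcin, 31798, 32498, 31600, 25777 and 31267. In CCN1 and GDF15 the catechin array was the lowest, and in STC1 the resveratrol array. CCN2, connective tissue growth factor, averaged 14.49 ± 0.05, VEGFA 14.29 ± 0.09 and PDGFC 13.96 ± 0.10. The TGF-beta ligands were lower in rank, TGFB2 at 10.29 ± 0.19, TGFB1 at 9.01 ± 0.11 and TGFB3 at 7.53 ± 0.14, and INHBA, the activin chain, averaged 11.99 ± 0.11. GREM1, a BMP antagonist, lay at 3 to 41, IGF1 at 45 to 123 and BMP4 at 9 to 34.

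Cytokines and chemokines were mostly not above the limit: 15 of 68 were, with a median signal of 60.9. MIF, macrophage migration inhibitory factor, averaged 15.10 ± 0.05. IL1B, interleukin-1 beta, was bright although PTPRC was not above the limit, at 18176, 24301, 21028, 17774 and 24251, and its second probe set had a mean of 13.98, also above the limit. The catechin and resveratrol arrays were the lower values. CXCL8, the neutrophil chemokine interleukin-8, read 5545, 6555, 5880, 4925 and 7109, IL24 averaged 11.95 ± 0.08 and IL1A 10.46 ± 0.18. IL6 averaged 8.49 ± 0.14, at 314 to 400. CXCL1 and CXCL2, which share inducers with CXCL8, lay at 9 to 126 and 2 to 45, and CXCL3 at 489 to 1124. CCL2, the monocyte chemokine, lay at 8 to 66, TNF at 12 to 90, IFNB1 at 6 to 28 and CXCL10 at 8 to 90.

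Some ligands and receptors of the same system were both high. GAS6, the ligand of AXL, averaged 12.86 ± 0.10, and for EGFR the ligands HBEGF and TGFA averaged 12.83 ± 0.18 and 11.79 ± 0.15, while EREG lay at 13 to 53. PLAU, the protease urokinase, and its receptor PLAUR averaged 14.70 ± 0.18 and 13.45 ± 0.06. WNT5A averaged 12.22 ± 0.13, with its receptors RYK at 13.82 ± 0.08 and ROR1 at 9.72 ± 0.14. LIF averaged 10.48 ± 0.15 beside LIFR and IL6ST.

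Others were high on 1 side. PDGFC was bright while PDGFRA was not above the limit, and VEGFA while its receptor KDR was not. The other VEGFA receptor FLT1 was above the limit on all 5 arrays, at 200 to 295, but from 1 of 6 probe sets. MET was bright while HGF read 244, 304, 130, 121 and 189, below the limit on the taxifolin and resveratrol arrays. For CXCL8 the receptors CXCR1 and CXCR2 lay at 11 to 24 and 14 to 73. IL1R1, the receptor of IL1B, lay at the limit, at 176 to 201, and its accessory chain IL1RAP averaged 10.99 ± 0.08. These are signals of RNA, and protein was not measured.

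**Figure D4:**
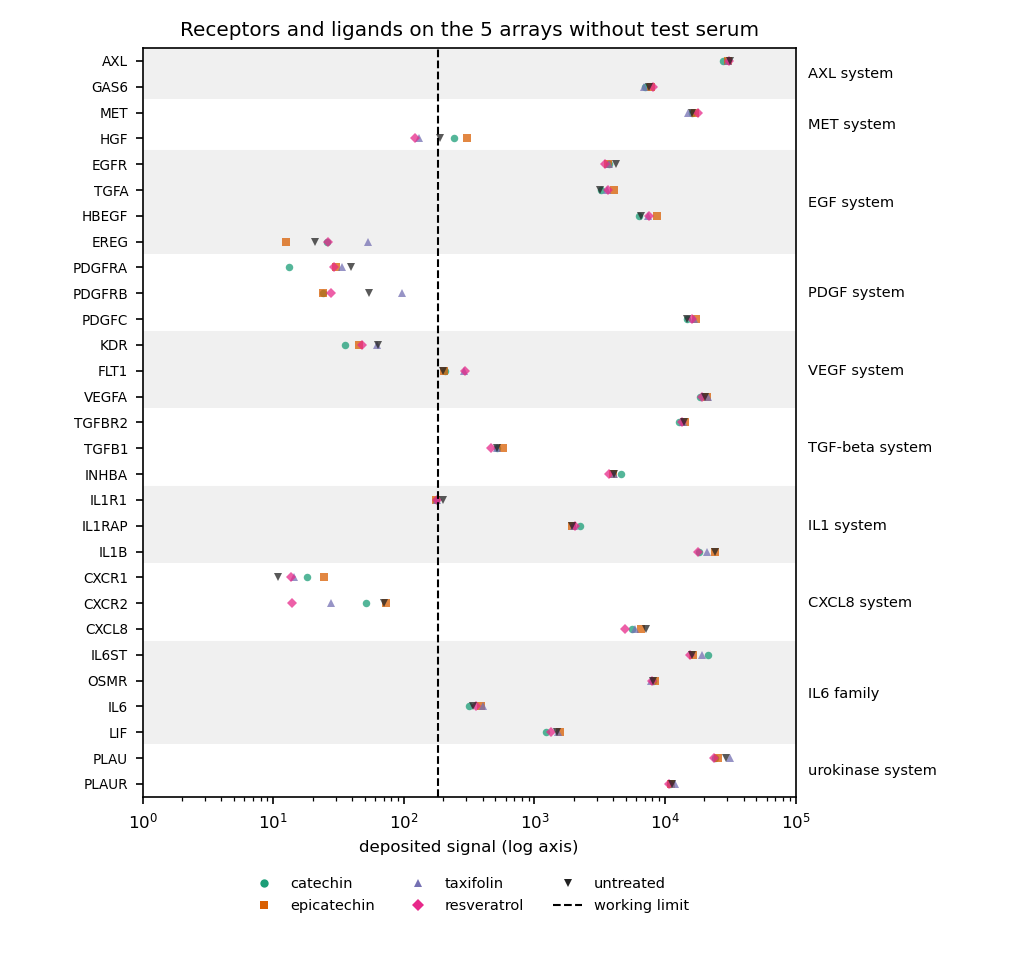
Deposited signal on a log axis (x axis) of receptors and ligands grouped by signalling system (y axis) on the 5 arrays without test serum, 1 symbol per array, with the working limit as a dashed line. AXL and GAS6 are both to the right of the line, whereas PDGFC, VEGFA and CXCL8 are to the right with PDGFRA, KDR, CXCR1 and CXCR2 to the left; FLT1, the other receptor of VEGFA, is just to the right.

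Collagens and their modifying enzymes were above the limit in 25 of 46 cases, with a median signal of 227. That was 54.3%, against 54.6% of all genes. COL6A3, a chain of the pericellular collagen VI, read 42930, 45545, 47441, 39419 and 44496, whereas its partners COL6A1 and COL6A2 averaged 11.72 ± 0.10 and 7.95 ± 0.25. COL13A1, a transmembrane collagen, averaged 14.23 ± 0.06 and the basement membrane chains COL4A1 and COL4A2 13.02 ± 0.16 and 12.84 ± 0.09. The fibril-forming collagens that make up most fibroblast matrix were not: COL1A2 lay at 10 to 156, COL3A1 at 10 to 66, COL5A1 at 96 to 194 and COL5A2 at 114 to 214. COL1A1 read 456, 339, 420, 382 and 346 from 1 of 5 probe sets above the limit. The enzymes were nevertheless bright, with the lysyl hydroxylase PLOD2 at 14.57 ± 0.04, the prolyl hydroxylase subunit P4HB at 14.35 ± 0.07, LOXL2 at 13.33 ± 0.17 and LOX at 12.57 ± 0.18.

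Other matrix proteins were above the limit in 27 of 45 cases, or 60%, against 54.6% of all genes, with a median signal of 615. EFEMP1, a fibulin, averaged 14.74 ± 0.06, SPARC 14.59 ± 0.09 and THBS1, thrombospondin-1, 14.26 ± 0.10. The laminin chains LAMB3, LAMC1 and LAMB1 averaged 13.67 ± 0.14, 13.06 ± 0.14 and 12.76 ± 0.14. FN1, fibronectin, read 7386, 6595, 6343, 6471 and 7571. The fibroblast products DCN, LUM, POSTN and ELN lay at 22 to 137, 2 to 90, 3 to 70 and 14 to 98.

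Extracellular proteases were above the limit in 26 of 46 cases, or 56.5%, against 54.6% of all genes, with a median signal of 282. ADAM9, a sheddase, averaged 14.80 ± 0.09, PLAU read 24155, 25427, 31368, 23784 and 29290, and the cathepsin CTSB averaged 14.01 ± 0.09. PLAT, tissue plasminogen activator, averaged 13.59 ± 0.24. MMP14, the membrane collagenase that activates MMP2, read 5642, 7330, 5763, 5528 and 5360, and MMP2 itself 1944, 1714, 1753, 1535 and 1501. MMP1, interstitial collagenase, averaged 10.74 ± 0.17, and MMP9, a gelatinase for which HT1080 is often used, 8.22 ± 0.39, at 219 to 426. MMP7, MMP10, MMP12 and MMP13 lay at 13 to 159, 45 to 65, 36 to 150 and 12 to 47.

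Protease inhibitors were above the limit in 13 of 28 cases, or 46.4%, against 54.6% of all genes, with a median signal of 153. SERPINE2, protease nexin-1, averaged 14.25 ± 0.08, TIMP2 13.92 ± 0.10 and TIMP1 13.26 ± 0.08, with TIMP3 at 8.95 ± 0.21 and TIMP4 at 3 to 24. TFPI2, an inhibitor of plasmin and tissue factor, lay at 5 to 33.

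Genes that handle polyphenols or are reported as their targets were above the limit in 22 of 37 cases. That was 59.5%, against 54.6% of all genes, with a median signal of 344. NFE2L2, the antioxidant transcription factor NRF2, read 18174, 17632, 17672, 16080 and 16392, its repressor KEAP1 averaged 11.27 ± 0.15 and its target NQO1 13.13 ± 0.08. PRKAA1, a catalytic subunit of AMPK, averaged 12.38 ± 0.14 and the deacetylase SIRT1 11.19 ± 0.10. The efflux pumps ABCC1 and ABCC4 averaged 11.91 ± 0.11 and 11.64 ± 0.10, and ABCB1 and ABCC2 lay at 24 to 58 and 12 to 62. SLCO1B3, an uptake transporter of liver, averaged 11.59 ± 0.05, its relative SLCO1B1 lay at 48 to 107, and UGT1A1, a conjugating enzyme, at 13 to 120. AHR, the aryl hydrocarbon receptor, averaged 10.31 ± 0.09, CYP1A1 8.34 ± 0.11, and PTGS1, cyclooxygenase-1, lay at 34 to 145.

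The spread over the 5 arrays fell with the signal. The median SD of genes above the limit was 0.14 on the log2 scale. With the ranking cut into 10 equal bins, bin 1 the dimmest, it was 0.62 in bin 3, of signals from 49.6 to 70.2, 0.22 in bin 6 and 0.085 in bin 10; in bin 1 most values lay at the floor of 35.9 and the median SD was 0. In the top 25% the genes of largest SD were MAP3K4, SRRM2, RARS1, PACS2, PAK1IP1, NICOL1, GPANK1, PIP5K1A, CHD4 and RAE1, from 0.56 down to 0.46. MAP3K4, a stress kinase, read 4236, 4637, 1893, 3126 and 4782, and RARS1, an arginyl-tRNA synthetase, 7473, 4558, 10430, 4150 and 7137. The resveratrol array was the lowest of the 5 for SRRM2, RARS1, PAK1IP1, PIP5K1A and CHD4. It was the highest for PACS2, NICOL1, GPANK1 and RAE1. For MAP3K4 the taxifolin array was the lowest and the untreated array the highest. Whether resveratrol had a part in this was not tested. Just inside the limit THBS3, SLC2A12 and ZNF546 had means of 183 and lay above it on 2 or 3 arrays, and just outside H4C5, DLG4 and CORO1A had means of 182 and lay above it on 2.

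The arrays with test serum gave the only contrast of this state within the series. They were compared with the 5 arrays by limma over 10988 genes. For this test the limit was set anew, in the same way, from the means over all 7 arrays. The threshold was a Benjamini-Hochberg adjusted p under 0.05 and at least 1.5-fold. With serum 87 genes, 0.792%, were higher and 241 genes, 2.19%, were lower. Of 43 secreted growth factors tested 2 were higher and 1 was lower, and of 15 cytokines and chemokines 2 were higher and 2 lower. The secreted factors that were lower were IL24, IL1B and VEGFA. IL24 fell by 1.66 ± 0.09 (SE) on the log2 scale (limma adjusted p = 0.000848), to 1318 and 1180 with control and pycnogenol-positive serum, and IL1B fell by 1.80 ± 0.21 (adjusted p = 0.00873), to 7662 and 4718. VEGFA fell by 1.02 ± 0.15 (adjusted p = 0.016), to 12060 and 8156, and the receptor DDR2 fell by 1.04 ± 0.15 (adjusted p = 0.016). In each of these 4 genes both serum arrays lay below all 5 others. The genes were named because they passed the test on these arrays, so this is no separate support.

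Of the list members the endothelin gene EDN1 rose from 273 to 402 without serum to 984 and 901 with it, by 1.399 ± 0.154 (limma adjusted p = 0.00697). CCL20, IL11, FSTL3, TGFBI, COL4A1, FN1, ADAM19, BMPR2, IL7R, OXTR, NR2F1, DLX2, CDC25A, PFKFB3, TPM1 and CDH11 were also higher, and ETV5, FYN, HOXB9, TNFRSF25, ITGB3, MMP1, MMP16, PLAT, AHRR and PTGS2 lower. For SDC1 the call came from 1 of 2 probe sets, at 2531 to 3231 without serum and 4746 and 5402 with it; the other read 2907 to 3778 and 3543 and 3545. No gene of the ribosomal, translation, proteasome or cytoskeleton lists passed the threshold. Over all genes the largest falls were those of RAB39B, INSIG1, HMGCS1, ST8SIA1 and DNAL4 and the largest rises those of PMEPA1, HMOX1, ID2, ID3 and EDN1. INSIG1 and HMGCS1, which belong to sterol regulation and synthesis, fell by 2.00 ± 0.13 (adjusted p = 0.000848) and 1.93 ± 0.14 (adjusted p = 0.00144). Without the pycnogenol-positive serum array 29 genes passed, and 201, 213 and 203 without the epicatechin, taxifolin and untreated array. In that fit without the pycnogenol-positive serum array IL24, INSIG1 and HMGCS1 still passed, while IL1B (limma adjusted p = 0.057), VEGFA (0.073), DDR2 (0.104) and EDN1 (0.057) did not; EDN1 also did not pass with the mean of its probe sets (0.074), nor DDR2 with no signal filter (0.050). Of the 41 named genes that passed the serum threshold, list members included, 33 no longer passed without the pycnogenol-positive serum array, 16 without the control serum array and 19 with no signal filter. The serum arrays also had the lowest array medians, 114 and 118, whose part in these differences was not tested.

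The promoters of the ranked genes were read from the RefSeq table for GRCh38.p14, which held 15384 of the 19775 genes, as 250 bases before and 50 after the start. The ratio of observed to expected CG dinucleotides, which is high in CpG islands, rose from a median of 0.36 in bin 1 of the ranking to 0.89 in bin 10, against 0.77 over all promoters. Most of that rise lay between bins 3 and 6, at 0.42 and 0.81. The letters CCGGAAG on either strand, the core of ETS factor sites, were found in 14.4% of all promoters, 5.05% of bin 1 and 24.6% of bin 10, and in 17 of 46 ribosomal protein promoters. GGGCGG on either strand, the GC box, was found in 58.9% of all promoters, 36.4% of bin 1 and 71.3% of bin 10. TATAAA, the TATA box, showed the other direction: on either strand it was in 8.76% of all promoters, 15.6% of bin 1, 4.16% of bin 8 and 6.49% of bin 10. Read on the gene's strand between 40 and 16 bases before the start, where TATA boxes act, it was in 2.97% of all promoters, 5.82% of bin 1, 0.723% of bin 8 and 2.14% of bin 10. CCGGAAG and GGGCGG matches become more likely with GC content, whose median was 55.7% in bin 1 and 64.7% in bin 10.

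Among genes above the limit the core window held TATAAA in 3 of 11 cytokine and chemokine promoters and 4 of 33 growth factor promoters, against 1.48% of all promoters above the limit. It also did in 3 of 22 collagen, 3 of 19 polyphenol, 2 of 3 skeletal muscle and 2 of 2 hepatocyte and gut promoters. The higher shares were therefore not limited to secreted factors. Ribosomal protein promoters had 1 of 46 and cell cycle promoters 0 of 33. TGANTCA, with N any base, the letters of AP-1 sites, was in 5.84% of all promoters and in 3 of those 11 cytokine promoters. It was also in 3 of 9 protease inhibitor promoters and in 0 of 22 collagen promoters of genes above the limit. The 140 bases before the start of 5 genes, chosen after the values had been seen, show the contrast: a ribosomal protein gene of the top of the ranking, 3 bright secreted factors and the muscle factor MYF5, which was not above the limit. Capitals mark TATAAA and TGANTCA on either strand. The positions are chr9:19380237-19380376 (minus strand) for RPS6, chr4:73740429-73740568 (plus) for CXCL8, chr6:131951373-131951512 (minus) for CCN2, chr19:18386018-18386157 (plus) for GDF15 and chr12:80716772-80716911 (plus) for MYF5.
RPS6: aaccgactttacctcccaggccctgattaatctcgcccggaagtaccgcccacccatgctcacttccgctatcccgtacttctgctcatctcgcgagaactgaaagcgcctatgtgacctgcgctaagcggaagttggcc
CXCL8: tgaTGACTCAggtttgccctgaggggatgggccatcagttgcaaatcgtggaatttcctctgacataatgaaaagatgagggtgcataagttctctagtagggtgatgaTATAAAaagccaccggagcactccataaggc
CCN2: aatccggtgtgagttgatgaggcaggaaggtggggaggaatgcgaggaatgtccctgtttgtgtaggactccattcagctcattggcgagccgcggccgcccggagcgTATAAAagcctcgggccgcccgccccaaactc
GDF15: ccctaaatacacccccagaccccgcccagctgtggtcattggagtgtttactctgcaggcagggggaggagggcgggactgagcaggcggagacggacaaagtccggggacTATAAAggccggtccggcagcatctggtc
MYF5: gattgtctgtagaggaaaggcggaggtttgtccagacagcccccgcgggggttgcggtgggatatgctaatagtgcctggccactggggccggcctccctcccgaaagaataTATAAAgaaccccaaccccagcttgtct
CXCL8, CCN2, GDF15 and MYF5 each hold 1 TATAAA and RPS6 none, and CXCL8 alone holds TGANTCA. CG dinucleotides number 11 in the stretches of RPS6 and CCN2, 7 in GDF15, 6 in MYF5 and 2 in CXCL8. A TATAAA match therefore stood before bright genes and before a gene not above the limit alike.

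**Figure D5:**
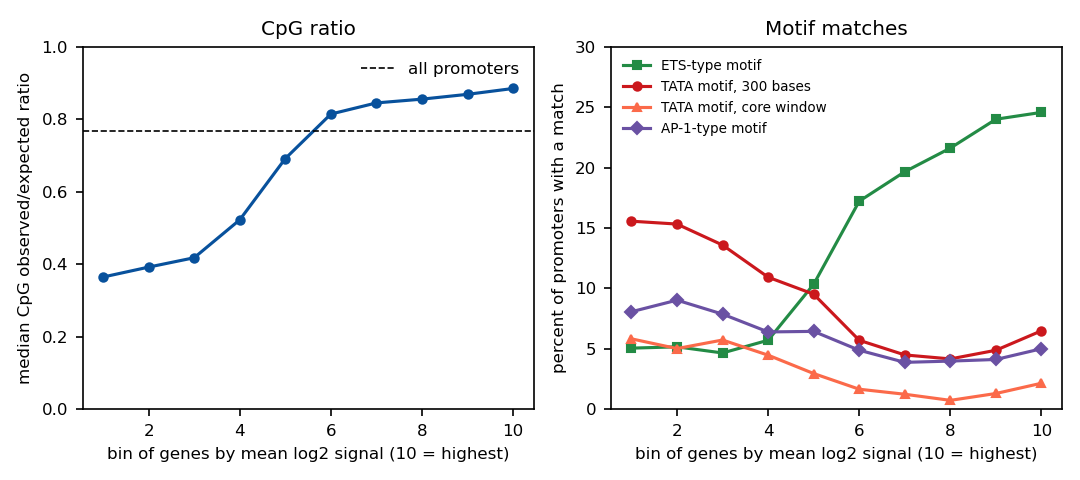
Median CpG observed/expected ratio (left) and percent of promoters with a motif match (right) by bin of genes ranked on the mean log2 signal, bin 10 being the highest; the dashed line is the median of all promoters. The CpG ratio rises from 0.36 to 0.89 and ETS-type matches from 5.05% to 24.6%, while TATA matches are most frequent in bins 1 and 2.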

How the data were processed

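Total RNA of 7 HT1080 cultures was measured on Affymetrix U133 Plus 2.0 arrays. The deposited values were linear signal intensities, computed by the authors with MAS5 per the submitters' processing notes, whose version is not given in the sources used here. The mean of each array trimmed by 2% at both ends was 1000, and no further scaling was applied. Of the probe sets 41097 had 1 gene in the platform annotation and were used, 1801 had several and 11777 had no entry; symbols were updated with RefSeq for GRCh38.p14. Signals under the 25th percentile of the 5 arrays, 35.9, were raised to it for means and SDs, while single signals are printed as deposited. Each gene was read from its brightest probe set over the 5 arrays, or over all 7 in the serum test, which made 125 of the tested genes differ in probe set.

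The serum comparison used lmFit and eBayes of limma 3.58.1 in R 4.3.3, with Benjamini-Hochberg adjustment, and was tested on simulated data. The number of arrays limits the precision. The 34 lists held 1331 genes, of which 1190 were measured and 680 were above the limit. The lists were chosen with earlier results of these data known. List members could be named, at least the 3 brightest of each, with the 20 highest genes, the 10 of largest SD in the top 25%, called list members and the 5 largest serum differences in each direction. The neighbours of CDKN2A and of OR51B5 and the promoters shown were chosen after their values were seen. Alternatives changed the floor, normalization, probe sets, limit, filter, fold and arrays.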

Additional observations from a re-analysis of the deposited data

Results flagged for a closer look

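Of the named genes above the limit 264 were examined for an array far from the other 4, and 12 had a gap to the nearest array of over 0.71 of the range on the log2 scale. The blood cell markers CD79A, CD3D and CSF1R were not among the 264, so the counts leave them out. CD79A had a gap over 0.71 as well, with the resveratrol array lowest at 198 (376 to 465 on the others). Chance alone gives such a gap in about 1 in 20 genes examined, and 12 of 264 is close to that rate. Of the 12, 3 lay on each of the catechin, epicatechin, taxifolin and resveratrol arrays and 0 on the untreated array. The catechin array was the lowest for CDKN1A at 3364 (4309 to 4652 on the others), for MSX1 at 2006 (2271 to 2382) and for CYP3A4 at 33.1 (260 to 454). The epicatechin array was the highest for MMP14 at 7330 (5360 to 5763) and SPRY2 at 7218 (6431 to 6628), and the lowest for MMP16 at 1667 (1922 to 1968). The taxifolin array was the highest for LDHA at 60716 (51396 to 53152), PPARD at 5593 (4859 to 4988) and RPS29 at 62539 (58892 to 59814). The resveratrol array was the lowest for STC1 at 25777 (31267 to 32498), SLCO1B3 at 2906 (3114 to 3170) and PLAA at 6266 (6604 to 6719). Each is 1 array of 1 culture, so a difference between compounds was not tested.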

How the results depend on the processing

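The count of genes above the limit, 10793, ranged from 8241 without probe sets of the suffixes _x_at and _s_at, where 17100 genes were left, to 11962 with the limit at the 90th percentile of the reference genes, a signal of 115.2. At the 99th percentile, a signal of 572, it was 8384, of which all 8384 were among the 10793. Leaving out an array in turn gave 10439 to 10941. The median SD of genes above the limit was 0.152 without probe sets of those suffixes and 0.128 to 0.138 when an array was left out, 0.128 without the resveratrol array. Of the 34 list counts 13 moved by over 1.5 times without those suffixes, which removed members, 10 at the 99th percentile and 4 at the 90th. The number of genes that differed with serum, 328, was 204 with the mean of all probe sets, 158 with no signal filter over 19775 genes, 612 with no fold threshold, and 29 to 317 when an array was left out; for a left out serum array the remaining one is assumed to vary like the other 5. At an unadjusted p under 0.05 2560 genes differed. The difference in median CpG ratio between bins 10 and 1 of the ranking, 0.521, stayed between 0.487 and 0.522 under 3 alternatives added after the data were seen. No result reversed. No paired analysis was possible because the arrays carry no replicate numbers in the labels. The median SD was 0.36 on the log2 scale among signals from 119 to 276, which hold the limit, and up to 0.62 below them, so single genes close to the limit can fall on either side of it.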

Other observations

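A stretch of the short arm of chromosome 11 held signals that fibrosarcoma cells are not known for. HBE1, the embryonic globin chain made by primitive red cells (chr11:5268345-5269945, GRCh38.p14), read 4827, 4738, 5235, 4753 and 4533 in the order catechin, epicatechin, taxifolin, resveratrol and untreated, a mean log2 signal of 12.23 ± 0.08 (SD, n = 5) from 1 of 2 probe sets above the limit. The adult chain HBB read 394, 339, 299, 413 and 227, and HBD lay at 10 to 77. The red cell genes ALAS2 and GATA1 lay at 26 to 67 and 27 to 169, not above the limit. Of the odorant receptor genes beside HBE1, OR51B5 (chr11:5340318-5505652) read 695 to 817, OR51B4 368 to 520 and OR51B2 373 to 472, and all 3 were above the limit on every array. They are 3 of the 7 reference genes above the limit. The annotated interval of OR51B5 spans OR51B6, OR51M1, OR51I1, OR51I2 and OR52D1, which were not above the limit on the mean. OR52A1, on the far side of HBB from HBE1, was not above it either. The highest signal among these genes on a single array was 294. Both serum arrays gave HBE1 signals of 4369 and 4066, a difference of -0.19 ± 0.09 on the log2 scale that did not pass (limma adjusted p = 0.23). This set of neighbours was chosen after the values were seen.

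Across chromosomes the share of protein-coding genes above the limit ran from 52.1% on chromosome 19 to 69.2% on chromosome 15.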
